A study of Arabidopsis thaliana with 12 samples.

Results

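The experiment described here is the response of cdk8 seedlings of Arabidopsis thaliana to abscisic acid (ABA), read as RNA-seq counts for every gene. It uses 6 of the study's 12 libraries, chosen by their labels for genotype and treatment: 3 of cdk8 seedlings given 50 µM ABA for 3 h, and 3 of cdk8 seedlings given a mock treatment. The other 6 libraries are wild type with the same ABA treatment (3) and wild type with mock (3), and they appear below only where the mutant's response is set beside that of the wild type. All were whole seedlings 1 week old. The label of cdk8 ABA replicate 3 carries a library number well apart from the consecutive numbers of all other libraries. Whether that library was grown or prepared apart from them is not stated. Of the 33602 genes in the count table, 21151 had enough counts to be tested, and these are the members. The cdk8 allele, the number of independent lines and whether the 3 libraries of a group came from separate cultures are not stated by the labels, so the p-values measure the spread between libraries, which may be partly technical. The count table names the mock columns as the start of the time course, and whether mock seedlings were held for as long as the treated ones is likewise not stated. If they were not, time and handling cannot be told apart from ABA in any gene below.

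ABA is the hormone of drought, salt stress and seed dormancy. In the known pathway, ABA bound to receptors of the PYR/PYL family blocks the clade A protein phosphatases (PP2C), which frees SnRK2 kinases to phosphorylate basic leucine zipper factors of the ABF and ABI5 group, and these bind ABA-responsive elements (ABRE) in promoters. CDK8 is the kinase of the Mediator kinase module, a part of the complex that links transcription factors to RNA polymerase II, and the study's title ties it to the transcription factor RAP2.6 and the kinase SnRK2.6. In seedlings, ABA is known to induce protective proteins and to slow growth and photosynthesis.

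Counts were scaled to library size as CPM with edgeR's TMM factors, and each gene was tested with edgeR's quasi-likelihood test in a fit of all 12 libraries, with a Benjamini-Hochberg adjusted p under 0.05 as the threshold for a call. Library totals were 24292745 to 27415053 counts in cdk8 with ABA and 18229473 to 20756476 in cdk8 mock. The first principal component held 74.8% of the variance and separated ABA from mock libraries. Within ABA, cdk8 replicate 2 and wild-type replicate 3 stood apart from the others of their groups on the fourth component, at -33.7 and -26.7. Cdk8 ABA replicate 2 also had the highest mean of 5 root markers among the cdk8 ABA libraries (3.92 log2 CPM, against 3.48 in replicate 1 and 3.11 in replicate 3; 4.89 to 5.09 in cdk8 mock), and the part of tissue makeup in the results was not tested. No root or leaf marker was at 0 in any library, which is what whole seedlings should hold: LHCB1.3, a light-harvesting protein of leaves, had 13470 to 17160 CPM in cdk8 with ABA and 16710 to 17650 CPM in cdk8 mock. LHCB1.3 was the only one of 3 leaf markers not called in cdk8, and the other 2 fell (30.4% of all genes tested were lower). The mean of the 3 was 12.4 to 12.7 log2 CPM in cdk8 with ABA and 13.3 to 13.4 in cdk8 mock.

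CDK8 itself (AT5G63610, chromosome 5, 25463437 to 25465897, minus strand, in the coordinates of the count table) had 10.6, 5.2 and 9.36 CPM in cdk8 with ABA and 5.24, 9.32 and 6.01 CPM in cdk8 mock, beside 29.2, 29.4 and 26.7 CPM in wild type with ABA and 21.9, 19.7 and 20.3 CPM in wild type with mock. Every cdk8 library lay below every wild-type library, but none was at 0. These counts do not say whether a full transcript is made. ABA did not change CDK8 by the test in cdk8 (log2 fold change 0.29 ± 0.23, adjusted p 0.297), although the rise passed without cdk8 ABA replicate 2 (0.54, adjusted p 0.0197). RAP2.6 (AT1G43160), an ethylene response factor, stood at 174, 189 and 162 CPM in cdk8 with ABA and 0.582, 1.44 and 1.12 CPM in cdk8 mock. SnRK2.6 (AT4G33950), the kinase of stomatal closure also called OST1, had 63, 57.2 and 64.8 CPM with ABA and 22, 20.8 and 18.8 CPM with mock. The groups of both genes were far apart, and the log2 fold changes were 7.38 ± 0.30 and 1.59 ± 0.10 (given with the standard error here and below; adjusted p 1.29e-10 and 1e-08). Neither rise differed from that of the wild type by the test of the difference (differences 0.46 ± 0.41 and -0.46 ± 0.14, adjusted p 0.566 and 0.0764), which does not show that they were equal. In wild type, RAP2.6 had 292, 267.5 and 483 CPM with ABA and 2.31, 3.52 and 2.75 CPM with mock. SnRK2.6 had 102, 89.4 and 80.4 CPM with ABA and 22.6, 21.5 and 21.8 CPM with mock in wild type. Every cdk8 ABA library lay below every wild-type ABA library in both genes.

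ABA raised 6466 genes in cdk8 (30.6% of those tested) and lowered 6430 (30.4%). At least 2-fold changes made up 2433 of the rises (11.5% of the genes tested) and 3047 of the falls (14.4%), at least 4-fold changes 821 (3.88% of the genes tested) and 1089 (5.15%), and at least 16-fold changes 167 (0.79%) and 180 (0.851%). The libraries of the 2 groups did not overlap in 7238 genes that were higher with ABA (34.2%) and 7057 that were lower (33.4%). The median log2 fold change over all genes tested was 0.007, with quartiles of -0.556 and 0.484. Genes called higher held 44.5 to 46.4% of the counts of each cdk8 ABA library, against 20.9 to 21.8% of each cdk8 mock library. The genes called lower held 23.3 to 25.2% with ABA and 47.9 to 49.7% with mock. Genes at least 4-fold higher alone held 9.98 to 10.9% with ABA and 1.08 to 1.19% with mock. A bulk library cannot tell fewer cells of a type from less RNA per cell, and the values are relative to the other genes of each library.

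The largest rises joined signalling, protective and regulatory genes, and the largest falls were mostly cell-wall, iron and oxidase genes. HAI3 (AT2G29380), a clade A phosphatase that restrains ABA signalling, had 122, 146 and 106 CPM in cdk8 with ABA and 0.106, 0.388 and 0.14 CPM in cdk8 mock. HSFA6B (AT3G22830), a heat-shock factor, had 168, 252 and 146 CPM with ABA and 0.423, 0.721 and 0.699 CPM with mock. LEA4-5 (AT5G06760), a late embryogenesis abundant protein that protects dehydrating cells, had 1010, 1156 and 912 CPM with ABA and 4.87, 5.05 and 4.2 CPM with mock. All 3 were near absent or low in every mock library and high in every ABA library, with log2 rises of 9.2 ± 0.29, 8.24 ± 0.26 and 7.77 ± 0.17 (adjusted p 1.73e-11, 1.83e-11 and 2.57e-12). GASA3 (AT4G09600), a small cysteine-rich peptide of the gibberellin-regulated GASA family, had 22.1, 23.8 and 27.2 CPM with ABA, while only 2 counts fell on it over the 3 mock libraries, so its ratio of 708 has an exact counting interval of 196 to 5850. The other large rises were BGLU24, a beta-glucosidase (7.92 ± 0.27), TSPO, a stress-induced membrane protein that binds porphyrins (7.92 ± 0.24), LEA7 (7.71 ± 0.29), RAP2.6, MYB121, a MYB transcription factor (7.28 ± 0.27), and EXPA16, an expansin (6.89 ± 0.24).

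EXPA8 (AT2G40610), an expansin that loosens the cell wall, had 0.391, 0.43 and 1.16 CPM in cdk8 with ABA and 151, 162 and 136 CPM in cdk8 mock, a change of -7.84 ± 0.26 (adjusted p 2.63e-11). FRO7 (AT5G49740), the iron reductase of chloroplasts, had 3.69, 2.4 and 2.85 CPM with ABA and 146, 162 and 112 CPM with mock. XTH31 (AT3G44990), a xyloglucan-modifying wall enzyme, had 3.16, 2.33 and 1.97 CPM with ABA and 133, 104 and 120.2 CPM with mock. A lack of overlap was required for these 3 genes to be chosen, and no library of one group came near the other. FRO7 and XTH31 changed by -5.55 ± 0.19 and -5.57 ± 0.24. Cytochrome P450 genes were 3 of the 10 largest falls. CYP71B36 had 3 counts over the ABA libraries and 341 over the mock libraries, a ratio of 158 in favour of mock with an exact counting interval of 53.5 to 768. CYP82C4 changed by -6.8 ± 0.71 and CYP712A2 by -5.95 ± 0.40. The rest were IRT1 and EXT13, described below, ANK, an ankyrin-repeat gene (-5.57 ± 0.94), and TPS04, a terpene synthase of defence volatiles, which varied widely in mock (0, 0.143 and 0 CPM with ABA and 4.87, 0.499 and 11.8 CPM with mock).

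**Figure D1:**
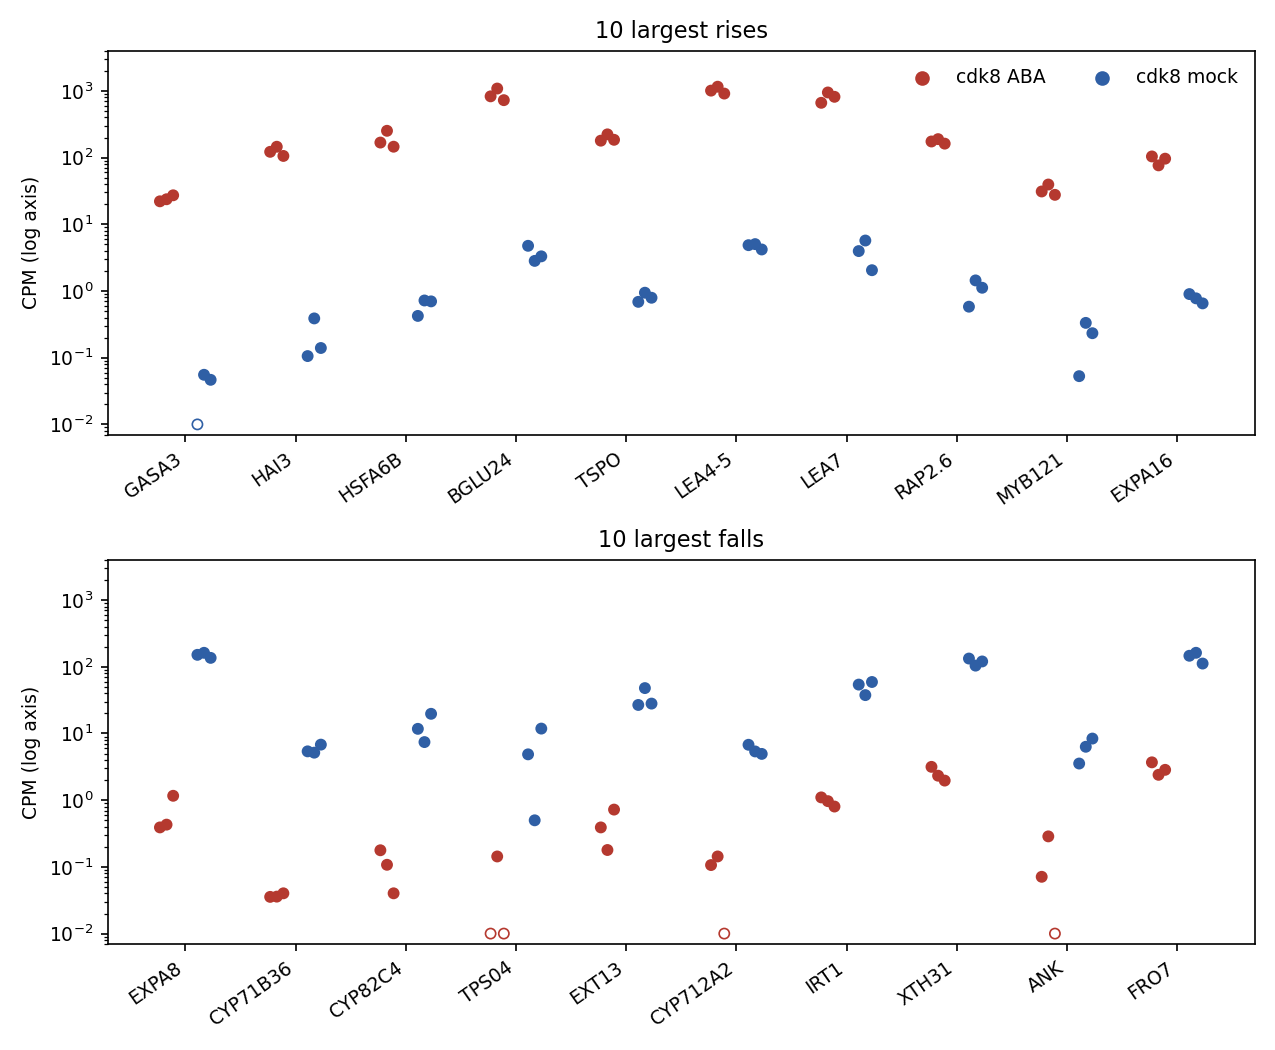
CPM (log axis) of the 10 genes with the largest rises (upper panel) and the 10 with the largest falls (lower panel) in cdk8, one point per library, cdk8 ABA in red and cdk8 mock in blue. Open points at the lower edge are libraries with 0 counts. The genes were chosen to have no overlap between red and blue points, and TPS04 has the widest mock group (0.499 to 11.8 CPM).

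The sequences just before the genes that moved most are shown because ABF-type factors are known to bind the letters ACGTG, the core of the ABRE. Each is the 300 bases before the start of the gene in RefSeq's annotation of the TAIR10.1 assembly, read 5′ to 3′ on the gene's strand, with ACGTG on either strand in capitals. The first 4 are those among the 10 largest rises with the most matches, and the last 2 belong to the 2 largest falls. LEA7 lies at chr1:19619424-19619723 (plus), LEA4-5 at chr5:2090431-2090730 (minus), RAP2.6 at chr1:16263505-16263804 (plus), HAI3 at chr2:12608375-12608674 (plus), EXPA8 at chr2:16950706-16951005 (minus) and CYP71B36 at chr3:9646094-9646393 (minus).
LEA7: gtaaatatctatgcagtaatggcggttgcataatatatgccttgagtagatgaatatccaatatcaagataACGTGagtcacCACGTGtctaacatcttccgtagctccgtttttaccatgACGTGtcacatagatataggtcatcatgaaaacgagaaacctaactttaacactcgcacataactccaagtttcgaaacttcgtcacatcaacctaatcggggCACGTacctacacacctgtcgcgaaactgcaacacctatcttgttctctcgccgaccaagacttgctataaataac
LEA4-5: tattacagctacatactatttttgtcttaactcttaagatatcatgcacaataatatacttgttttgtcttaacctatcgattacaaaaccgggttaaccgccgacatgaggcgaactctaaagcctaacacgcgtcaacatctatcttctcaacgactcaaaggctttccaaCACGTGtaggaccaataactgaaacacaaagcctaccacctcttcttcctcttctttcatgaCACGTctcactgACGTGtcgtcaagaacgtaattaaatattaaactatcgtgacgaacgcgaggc
RAP2.6: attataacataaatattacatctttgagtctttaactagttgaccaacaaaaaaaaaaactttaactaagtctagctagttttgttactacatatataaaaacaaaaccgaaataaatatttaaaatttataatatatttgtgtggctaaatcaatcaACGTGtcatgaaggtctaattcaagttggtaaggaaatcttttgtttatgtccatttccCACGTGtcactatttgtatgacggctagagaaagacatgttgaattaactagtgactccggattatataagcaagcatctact
HAI3: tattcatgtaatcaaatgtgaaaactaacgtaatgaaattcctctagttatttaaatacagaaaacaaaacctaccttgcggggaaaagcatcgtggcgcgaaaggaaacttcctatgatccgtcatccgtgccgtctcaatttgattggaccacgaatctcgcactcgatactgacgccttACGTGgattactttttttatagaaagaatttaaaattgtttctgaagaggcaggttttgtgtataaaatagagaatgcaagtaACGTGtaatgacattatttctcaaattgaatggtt
EXPA8: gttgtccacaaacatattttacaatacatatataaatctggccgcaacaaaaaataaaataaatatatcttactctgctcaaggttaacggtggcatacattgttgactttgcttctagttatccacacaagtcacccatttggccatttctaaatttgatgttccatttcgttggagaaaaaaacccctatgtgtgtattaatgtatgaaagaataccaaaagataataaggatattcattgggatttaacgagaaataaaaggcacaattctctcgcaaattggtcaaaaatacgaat
CYP71B36: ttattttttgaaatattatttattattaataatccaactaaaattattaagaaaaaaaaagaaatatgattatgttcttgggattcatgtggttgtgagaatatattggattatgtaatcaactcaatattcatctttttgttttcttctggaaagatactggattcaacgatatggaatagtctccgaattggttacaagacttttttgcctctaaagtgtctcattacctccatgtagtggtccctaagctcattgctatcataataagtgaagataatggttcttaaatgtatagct
Counted over both strands, so that the palindrome CACGTG counts once for each, the LEA7 window held 5 matches, LEA4-5 4, RAP2.6 3 and HAI3 2, and the windows of EXPA8 and CYP71B36 held none. Of the 10 largest rises 6 held ACGTG, against 4 of the 10 largest falls and 26.9% of all promoters. Of the 8 genes with the largest gain of CPM 2 held it, against 3 of the 8 with the largest loss. The rises shown were picked for their matches and the falls by rank, so the printed windows cannot be compared as groups. A missing match says only that these letters are not in this window.

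Over all promoters of 300 bases, the share with the longer ABRE letters ACGTGNC (N is any base, both strands searched) was highest among the largest rises. It was 27.6% for genes at least 4-fold higher (218 of 791 promoters), 15.2% for those 2- to 4-fold higher, 11.6% for smaller rises, 8.99% for genes not called and 8.37% for genes at least 4-fold lower, with 10.6% over all 20515 promoters. The G-box CACGTG, which overlaps the ABRE wherever the base before ACGTG is C, was in 22.9% of genes at least 4-fold higher, 6.72% of genes not called and 6.40% of those at least 4-fold lower (8.21% over all). The shorter ACGTG was in 49.1% of the first class, 24.2% of genes not called and 31.7% of genes at least 4-fold lower (26.9% over all). The unrelated GCC-box GCCGCC, a site of ethylene response factors, was in 2.02%, 2.81% and 1.79% of these classes (2.33% over all). Matches to ACGTGNC were densest 51 to 100 bases before the start, at 142 per 1000 promoters of genes at least 4-fold higher and 28.4 per 1000 of genes not called. Among the genes named by rank, ACGTGNC was in 3 of the 10 largest rises and 1 of the 10 largest falls. It was in 0 of the 8 largest gains of CPM and 2 of the 8 largest losses. These shares and counts describe letters, not bound sites.

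**Figure D2:**
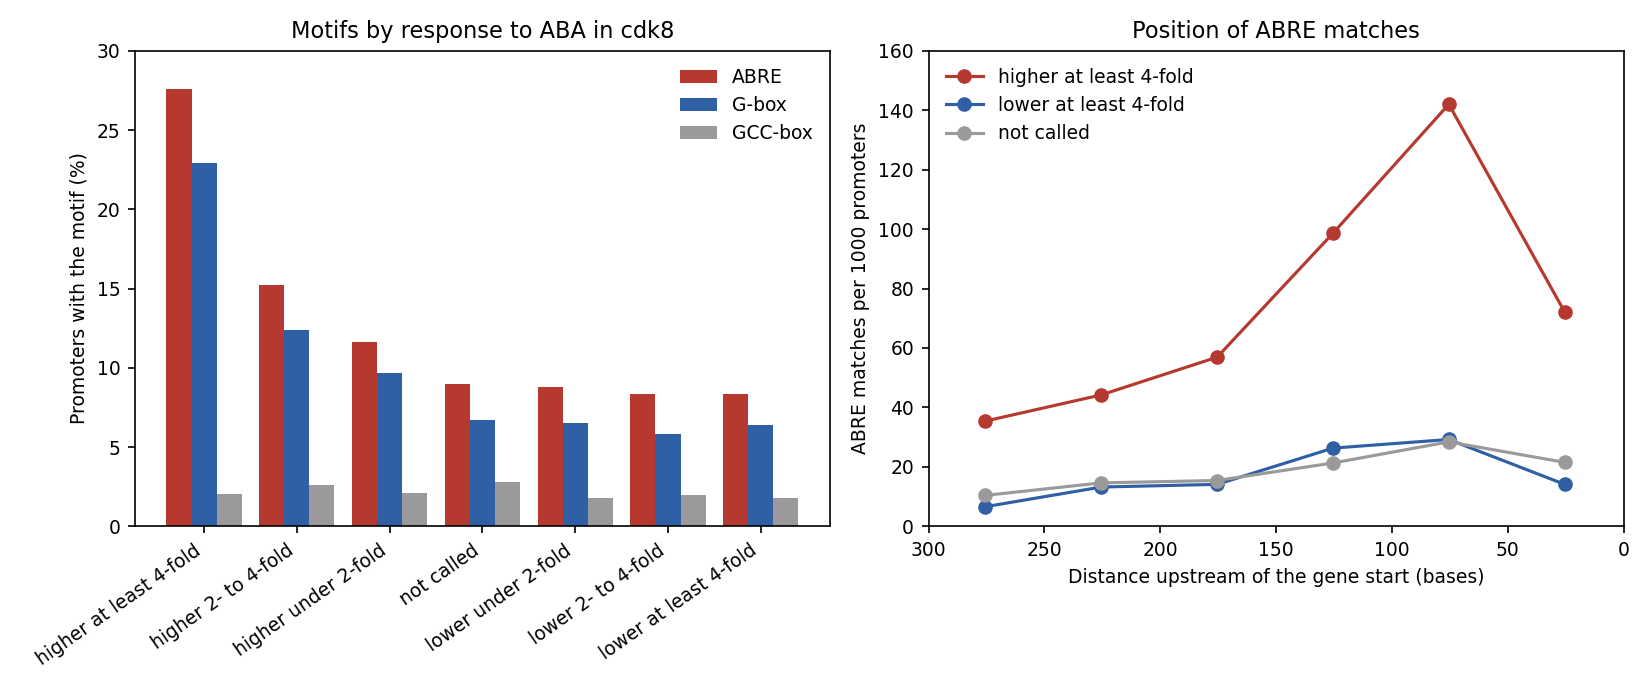
Left, percentage of 300-base promoters that hold the ABRE, the G-box and the GCC-box letters, by the gene's response to ABA in cdk8. Right, ABRE matches per 1000 promoters in bins of 50 bases, by distance upstream of the gene start. The ABRE share is 27.6% in genes at least 4-fold higher and 8.99% in genes not called, and the density in the first class peaks at 142 per 1000 between 51 and 100 bases.

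In the core of the pathway, the negative regulators rose and most receptors fell. The counts of list members here and below stand beside 30.6% higher and 30.4% lower over all genes. All 9 clade A PP2C genes rose (median log2 fold change 3.20, against 0.007 over all genes). ABI1 had 511, 524 and 453 CPM in cdk8 with ABA and 89.6, 86.8 and 77.8 CPM in cdk8 mock (2.55 ± 0.10), HAI1 rose by 5.47 ± 0.29, and HAB2 had the smallest rise (1.3 ± 0.12). All 4 AFP genes, whose proteins bind and restrain ABI5, rose (median 3.03), with AFP1 at 234, 249.7 and 238 CPM with ABA and 10.3, 10.7 and 5.64 CPM with mock. Of 14 PYR/PYL receptors 10 were tested: 6 fell, 1 rose and the median was -1.22. PYL4 had 4.72, 5.62 and 6.14 CPM with ABA and 72.3, 63 and 67.9 CPM with mock, a change of -3.62 ± 0.16, and PYR1 (-1.89 ± 0.10) and PYL6 (-3.98 ± 0.45) fell too. PYL7 was the receptor called higher (0.49 ± 0.13), but 49.0% of its exon bases are shared with a neighbouring gene, and its ABA and mock libraries overlapped.

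Of the genes that carry the signal forward, the ABF and ABI5 factors rose and the kinases were mixed. Of 10 SnRK2 kinases 6 rose and 2 fell (median 0.62), SnRK2.6 among the rises and SNRK2.8 among the falls (-2.08 ± 0.18). The rises were 5 without any one cdk8 mock library or without cdk8 ABA replicate 1 or 3. They were also 5 with upper-quartile scaling, no low-count filter or a replicate block, and 7 without cdk8 ABA replicate 2 or with only the cdk8 libraries. All 7 tested genes of the ABF and ABI5 group of 8 rose (median 2.0). ABI5, the factor that holds back growth after germination, had 18, 15.3 and 21 CPM with ABA and 0.952, 1.55 and 1.02 CPM with mock (3.95 ± 0.20), and ABF3 rose by 2.18 ± 0.12. In the kinase cascade that ABA is known to activate, MAPKKK18 had 72.3, 74.8 and 70.3 CPM with ABA and 1.06, 0.998 and 1.17 CPM with mock, a tight and wide separation (6.06 ± 0.15, adjusted p 6.51e-12). MAPKKK17 and MPK7 rose by 3.41 ± 0.17 and 2.11 ± 0.09. Of the 7 cascade genes 3 rose, 2 fell and 2 were not called, with a median of 0.045 against 0.007 over all genes.

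Genes that remove ABA rose, and those that make it split. CYP707A1, the hydroxylase that starts ABA breakdown, had 334, 469 and 320.2 CPM in cdk8 with ABA and 16.8, 14 and 13.9 CPM in cdk8 mock (4.65 ± 0.17), and CYP707A3 rose by 3.43 ± 0.14. Of 8 breakdown and conjugation genes 6 rose and none fell. In synthesis, 5 of 8 tested genes (of 10) rose and 2 fell: NCED3, the rate-limiting dioxygenase, rose by 2.13 ± 0.16 and AAO3, which makes the last step, by 1.84 ± 0.14, while ABA1, the zeaxanthin epoxidase at the start, fell (-0.52 ± 0.11). The exporters ABCG25 and DTX50 had 73.4, 70.3 and 73.2 CPM and 71.5, 60.6 and 74.3 CPM with ABA, against 17.7, 18.4 and 17.1 CPM and 5.61, 5.43 and 5.69 CPM with mock. Both groups were tight and apart (2.03 ± 0.12 and 3.62 ± 0.18). The importer ABCG40, described below, rose as well (3.15 ± 0.59). In the list of 6 ABA transport genes 3 rose, 1 fell and 2 were not called (median 1.02), and 2 fell with upper-quartile scaling or without cdk8 ABA replicate 2.

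Protective proteins rose almost without exception. All 19 LEA, RD and COR effectors rose, with a median of 4.76, and so did 6 of 7 dehydrins (median 3.36), the hydrophilic proteins that guard membranes and enzymes in drying cells. RD29A (AT5G52310), the standard reporter of drought and ABA, had 4345, 5099 and 4713 CPM in cdk8 with ABA and 93.8, 99.5 and 76.2 CPM in cdk8 mock (5.71 ± 0.18). The dehydrin COR47 had 5009, 5732 and 4702 CPM with ABA and 486, 450.2 and 572 CPM with mock (3.36 ± 0.13). KIN2 had 5379, 3912 and 4690 CPM with ABA and 129, 109 and 105 CPM with mock (5.35 ± 0.16), and its neighbour and near copy KIN1 rose by 4.76 ± 0.23, although reads may be split between them. Every ABA library of these genes was several times above every mock library. RAB18 (3.92 ± 0.27), ERD10 (3.98 ± 0.11), XERO2 (4.44 ± 0.14), COR413-PM1 (2.58 ± 0.12) and RD29B (5.62 ± 0.42) rose as well.

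Among genes with a symbol, the largest gain in CPM was that of ADC2, the arginine decarboxylase of polyamine synthesis, with 6192, 7397 and 6132 CPM with ABA and 451, 439 and 403 CPM with mock (3.93 ± 0.15). Sugar and proline genes were mixed. Of 9 galactinol and raffinose genes 8 were tested, and 3 rose and 1 fell. Over all genes 30.6% were higher and 30.4% lower, and nothing is read from the number of rises. GOLS2 and GOLS4, galactinol synthases of drought and cold, rose by 3.35 ± 0.32 and 2.51 ± 0.17. Among 8 proline genes 5 rose and 2 fell. P5CS1, which makes proline under stress, had 901, 892 and 966 CPM with ABA and 432, 563 and 326 CPM with mock (1.06 ± 0.18). Of 7 genes of starch and sucrose breakdown 5 rose and 1 fell (median 0.785), and 4 rose without cdk8 ABA replicate 2. BAM3, the main starch-degrading amylase of leaves at night, fell (-2.77 ± 0.17), and BAM1, the amylase used in stress and guard cells, rose (0.95 ± 0.12).

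Of 15 heat factors and heat shock proteins 13 rose and none fell (median 3.23). HSP22 had 1.67, 2.44 and 2.45 CPM in cdk8 with ABA and no count in any cdk8 mock library, which makes it at least 42.3-fold higher if the mock group is set to a floor of 3 counts in all. HSP17.6A had 440 counts over the ABA libraries and 3 over the mock libraries, a ratio of 106 with an exact counting interval of 35.9 to 515. HSP101, the disaggregase needed for heat tolerance, had 34.7, 37.4 and 55.7 CPM with ABA and 10.8, 12.4 and 11.9 CPM with mock, and its ABA libraries were the more spread (1.86 ± 0.24). Of 9 hypoxia genes 8 rose (median 2.55), with ADH1, alcohol dehydrogenase, at 371, 439.5 and 345 CPM with ABA and 6.19, 5.77 and 5.45 CPM with mock (6.05 ± 0.17).

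Stress transcription factors rose across families. Of 11 stress NAC factors 10 rose and none fell (median 2.97), all 9 tested CBF, DREB2 and ZAT factors of 11 rose (median 3.33), and 4 of 5 tested ERF group X factors, the group of RAP2.6, rose (median 3.19). NAC032 had 242, 231 and 276 CPM in cdk8 with ABA and 6.88, 5.32 and 4.94 CPM in cdk8 mock, RD26 had 342, 369 and 320.2 CPM with ABA and 25.4, 26.3 and 24.5 CPM with mock, and NAC019 rose by 4.99 ± 0.35. The first 2 rose by 5.45 ± 0.15 and 3.76 ± 0.09 with no library near the other group. DREB2A, a drought and heat factor, rose by 3.63 ± 0.19, ABR1, an ERF repressor of ABA responses, by 5.92 ± 0.36, and MYB102 by 5.61 ± 0.25. Of 9 ABA-linked MYB factors 6 rose and 1 fell. HB7 and HB12, homeodomain factors that slow growth in drought, rose by 3.22 ± 0.11 and 2.62 ± 0.11.

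**Figure D3:**
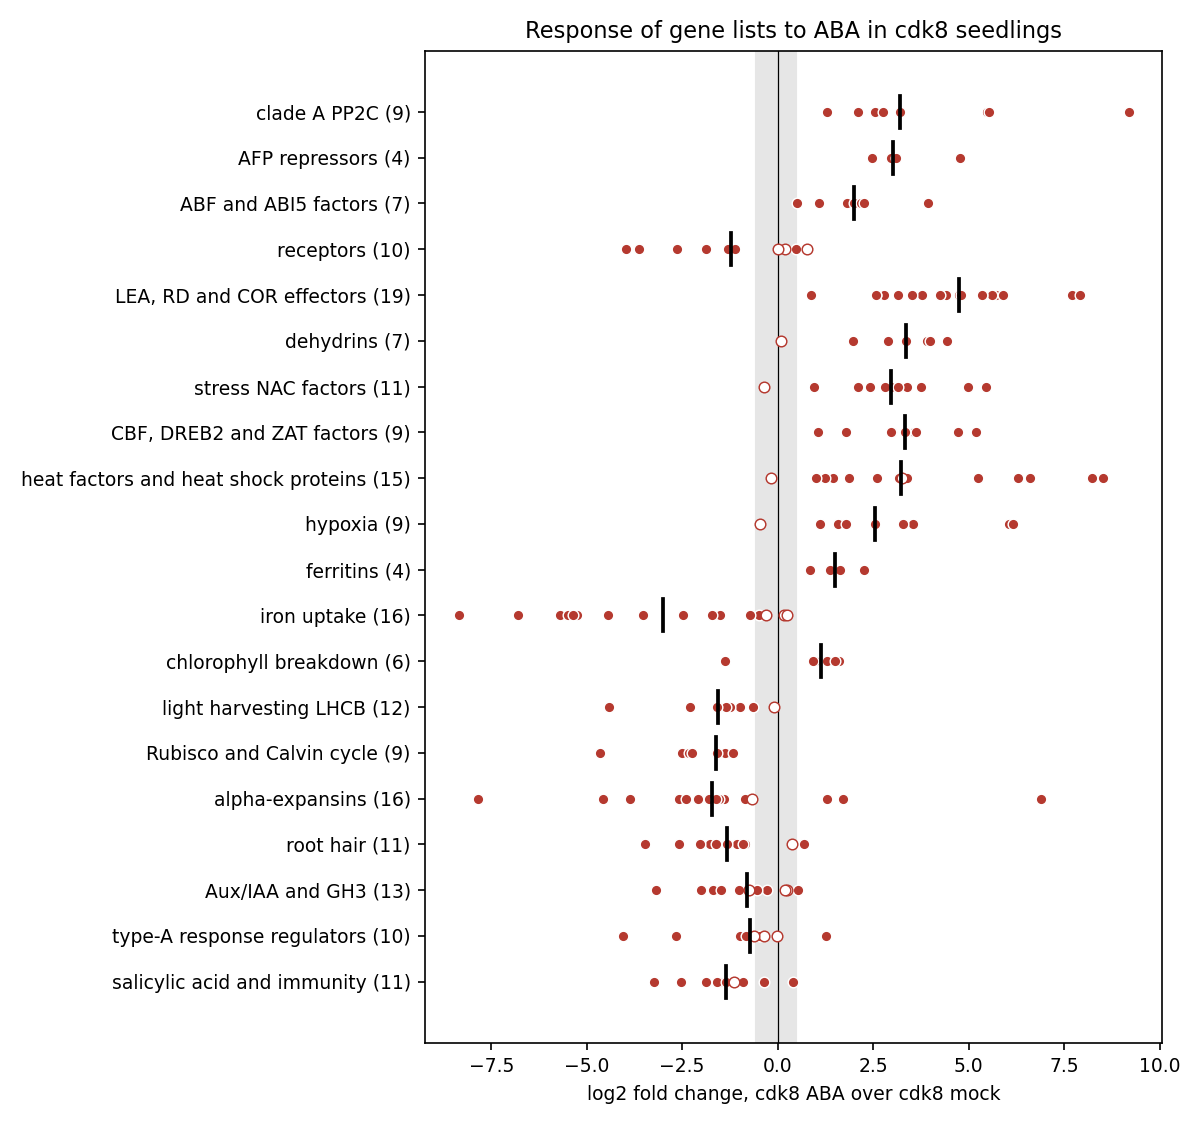
Log2 fold change, cdk8 ABA over cdk8 mock, of each tested member of 20 gene lists, with the number tested in brackets; filled points passed the adjusted p threshold of 0.05, open points did not, and the black bar is the list's median. The grey band spans the quartiles of all 21151 genes (-0.556 to 0.484). Phosphatases, protective proteins and stress factors lie to the right, and iron uptake, light harvesting, expansins and root hair genes mostly to the left.

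Iron uptake genes fell and ferritins rose. Ferritins store iron in plastids and mitochondria, while IRT1 and FRO2 are the iron importer and the ferric reductase of the root surface, switched on in iron need by FIT together with bHLH38, bHLH39, bHLH100 and bHLH101. Of 16 tested iron uptake genes (of 17) 13 fell, with a median of -3.01. IRT1 (AT4G19690) had 1.1, 0.967 and 0.803 CPM in cdk8 with ABA and 54.1, 37.6 and 59.1 CPM in cdk8 mock (-5.7 ± 0.43, adjusted p 5.47e-08). FRO2 (AT1G01580) had 1.39, 1.15 and 1.0 CPM with ABA and 46.1, 34 and 56.8 CPM with mock (-5.26 ± 0.26). Both groups were far apart for each gene. BHLH101 had 0.142, 0.107 and 0.361 CPM with ABA and 10.2, 7.32 and 7.64 CPM with mock (-5.36 ± 0.42), and BHLH38 (-3.53 ± 0.40), BHLH39 (-4.44 ± 0.42), BHLH100 (-5.49 ± 0.69) and FIT (-1.5 ± 0.28) fell too. CYP82C4, an iron-deficiency marker that modifies root coumarins, was among the largest falls above. AT3G12900 had no count in any ABA library and 1.59, 1.83 and 2.33 CPM with mock, which makes it at least 52.2-fold lower with ABA if the ABA group is set to a floor of 3 counts in all.

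All 4 ferritins rose (median 1.5). FER1 (AT5G01600) had 326, 230.1 and 329.8 CPM in cdk8 with ABA and 47.6, 78.2 and 57.8 CPM in cdk8 mock (2.27 ± 0.19), and FER4 (AT2G40300) had 55.2, 39.4 and 49.1 CPM with ABA and 14.8, 21 and 19.8 CPM with mock (1.37 ± 0.15). The ABA libraries lay above the mock libraries in both. FER1 shares 51.2% of its exon bases with an overlapping gene, and the counting did not use strand. For FRO2, wild type had 0.232, 1.0 and 0.476 CPM with ABA and 2.79, 2.76 and 2.06 CPM with mock, so that cdk8 mock stood well above wild-type mock and the ABA libraries of both genotypes were low. Its fall in cdk8 was larger by the test of the difference (-3.11 ± 0.54, adjusted p 0.00608), a call that did not pass without wild-type ABA replicate 2 (-2.46, adjusted p 0.0515). For FER4, which had 39.1, 45.2 and 41.6 CPM in wild type with ABA and 32.1, 41.1 and 32.7 CPM in wild type with mock, the wild-type value of 0.25 ± 0.15 did not pass and cdk8 mock lay below wild-type mock. The difference was 1.12 ± 0.21 (adjusted p 0.00934). Of 5 root markers 3 fell in the same cdk8 libraries, while 1 rose and 1 was not called. RHD2 had 29.8, 34.7 and 30.2 CPM in cdk8 with ABA and 19.7, 19.1 and 20.3 CPM in cdk8 mock. PHT1;1 had 65.1, 74.5 and 50.6 CPM with ABA and 56.5, 51.4 and 57.5 CPM with mock. The part of tissue makeup in the fall of root iron genes was not tested.

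**Figure D4:**
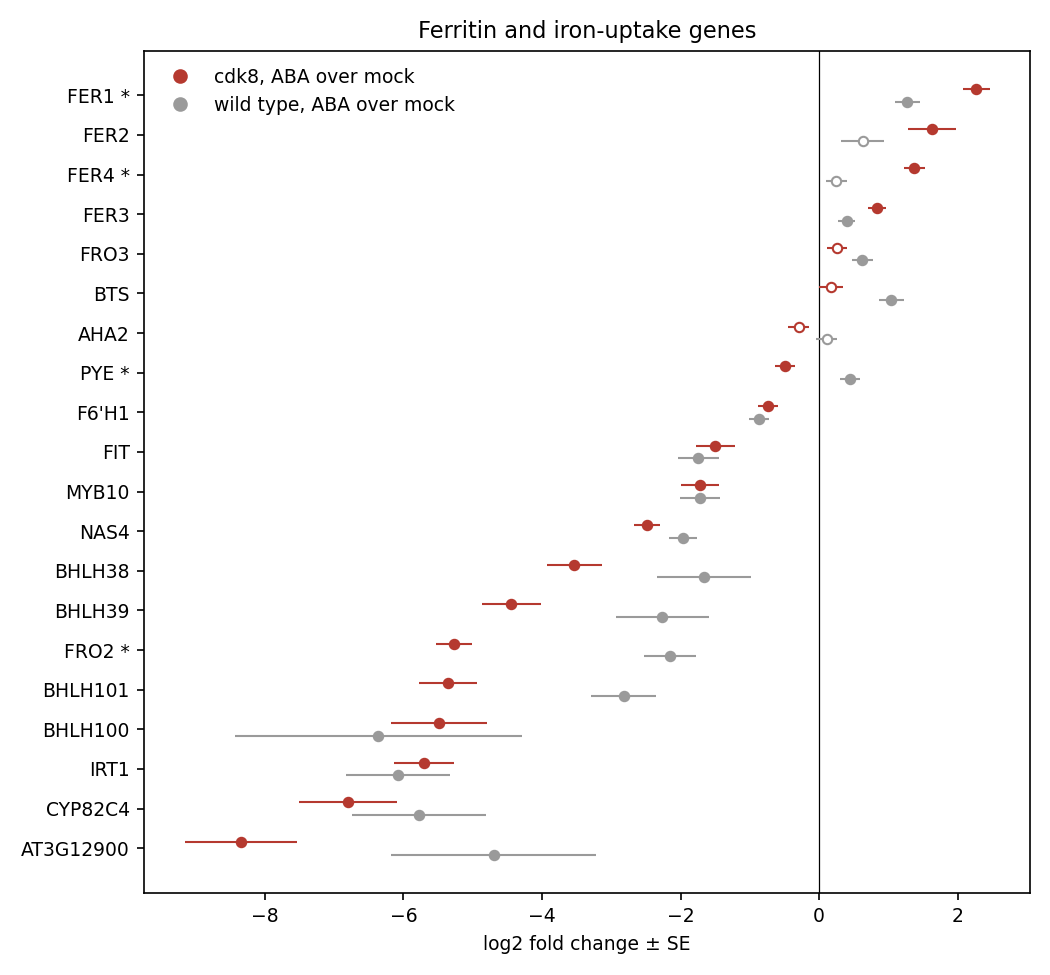
Log2 fold change ± SE, ABA over mock, of 4 ferritin genes and 16 iron uptake genes in cdk8 (red) and wild type (grey), filled where the adjusted p is under 0.05; an asterisk marks a called difference between the genotypes. Ferritins lie right of 0 in cdk8 and 13 iron uptake genes fell in it; the fitted value of AT3G12900 rests on 0 counts in cdk8 with ABA and is no estimate of its fold.

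Photosynthesis genes fell together in cdk8. Of 12 LHCB genes, which encode the light-harvesting proteins of photosystem II, 11 fell and none rose (median -1.55), and all 9 Rubisco and Calvin cycle genes fell (median -1.61). RCA, Rubisco activase, had 1764, 1760 and 1654 CPM in cdk8 with ABA and 8777, 9077 and 8201 CPM in cdk8 mock (-2.33 ± 0.10). RBCS1A, a small subunit of Rubisco, had 4750, 4540 and 4464 CPM with ABA and 10910, 10840 and 9642 CPM with mock (-1.19 ± 0.14). LHCB2.3 had 93.8, 71.8 and 105 CPM with ABA and 1984, 2036 and 1802 CPM with mock, the largest fall of its family (-4.43 ± 0.25). In all 3 the groups were apart. LHCB3 (-1.55 ± 0.14), LHCB5 (-1.34 ± 0.12), LHCB1.2 (-0.98 ± 0.12) and CAB4 (-0.92 ± 0.18), an antenna protein of photosystem I, fell as well. The fall of LHB1B2 (-0.66 ± 0.23, adjusted p 0.026) did not pass without cdk8 mock replicate 1 (adjusted p 0.0806), cdk8 mock replicate 2 (0.0604) or cdk8 ABA replicate 2 (0.0956). Members of the LHCB1, LHCB2 and RBCS families are near copies, and reads may be split between them. Other named genes share exon bases with a neighbour that these counts cannot separate by strand: 16.4% in LHCB3, 14.1% in AAO3, 10.2% in SNRK2.8, 9.47% in LHB1B2, 7.54% in ABF1, 6.89% in ABR1, 4.19% in ADH1, and from 0.639% to 3.19% in HSP101, P5CS1, GOLS4, KCS2, AFP1, CAB4 and BAM3.

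Genes of chlorophyll breakdown moved the other way, with 5 of 6 higher and 1 lower (median 1.14). NYE1, which removes the magnesium of chlorophyll, had 56.6, 49.5 and 54.6 CPM with ABA and 22, 21.2 and 22.4 CPM with mock (1.29 ± 0.10), and NYC1, a chlorophyll b reductase, rose by 1.49 ± 0.11. Nitrate assimilation rose too, in 4 of 5 genes and with none lower (median 1.09): the nitrate reductases NIA2 and NIA1 by 1.55 ± 0.15 and 1.5 ± 0.18, and the nitrite reductase NIR1 by 1.09 ± 0.16.

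Growth genes mostly fell. Of 16 tested alpha-expansins (of 18) 12 fell and 3 rose (median -1.71), and of 11 root hair genes 9 fell and 1 rose (median -1.34). EXPA1 had 11.1, 13.5 and 11.6 CPM in cdk8 with ABA and 282, 267 and 313 CPM in cdk8 mock (-4.58 ± 0.17). EXPA16 was one of the 3 that rose, with 104, 76.5 and 96.4 CPM with ABA and 0.899, 0.776 and 0.652 CPM with mock. PRP3, a wall protein of root hairs, had 7.88, 12.1 and 5.54 CPM with ABA and 82.2, 115 and 85.7 CPM with mock (-3.47 ± 0.28). EXT13, an extensin, had 0.391, 0.179 and 0.723 CPM with ABA and 26.8, 47.9 and 28.1 CPM with mock (-6.32 ± 0.42). The groups did not overlap in any of these genes, which the choice of EXPA16 and EXT13 among the largest changes required. Of 13 plasma membrane aquaporins, which let water through membranes, 7 fell and 2 rose, PIP2;4 among the falls (-1.5 ± 0.14).

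Genes of growth hormones fell more often than they rose. In gibberellin metabolism and signalling, 9 of 16 tested genes (of 17) fell and 5 rose, against 30.4% and 30.6% over all genes, and the rises were 3 without cdk8 mock replicate 1, cdk8 mock replicate 3 or cdk8 ABA replicate 3, and with upper-quartile scaling. GA20OX1, which makes gibberellin precursors, had 0.142, 0.215 and 0.12 CPM with ABA and 3.65, 3.33 and 3.92 CPM with mock (-4.45 ± 0.45), and GA2OX6, which inactivates gibberellin, had 57.1, 56.3 and 48 CPM with ABA and 6.3, 6.04 and 8.06 CPM with mock (2.98 ± 0.15). These groups were apart in opposite directions. GASA6, a growth-promoting peptide of the GASA family, had 12.2, 3.04 and 11.9 CPM with ABA and 216, 213 and 192 CPM with mock, with cdk8 ABA replicate 2 lowest (-4.52 ± 0.42). Of 13 Aux/IAA and GH3 genes of auxin 9 fell and 1 rose (median -0.79; IAA1 -3.2 ± 0.21), and of 10 type-A response regulators, which cytokinin induces, 6 fell and 1 rose (median -0.72; ARR15 -4.05 ± 0.34). In the jasmonate list 10 of 17 rose and 3 fell, with the repressor JAZ1 up by 2.73 ± 0.16 and the storage protein VSP2 by 2.19 ± 0.28. In the salicylic acid and immunity list 9 of 11 fell and 1 rose (median -1.36), but 5 fell without cdk8 mock replicate 3 and 6 without cdk8 ABA replicate 1 or 3. PAD4, a regulator of immune signalling, had 6.32, 9.32 and 6.38 CPM with ABA and 19.3, 20.9 and 26.7 CPM with mock (-1.6 ± 0.16).

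Leaf surface and clock genes changed in both directions. Of 15 tested wax and cutin genes (of 17) 9 rose and 3 fell. KCS2, which lengthens fatty acids for wax, rose by 2.7 ± 0.13, and CER4, which makes wax alcohols, had 0.142, 0.107 and 0.0803 CPM with ABA and 5.08, 4.49 and 5.97 CPM with mock (-5.47 ± 0.30). In the list of guard cell and stomatal genes 5 of 13 fell and 2 rose, beside 30.4% lower and 30.6% higher over all genes, and nothing is read from the number of falls. MYB60, a factor of stomatal opening, fell (-2.18 ± 0.14), and GORK, the potassium channel that lets ions out as stomata close, rose (1.64 ± 0.17). Among 13 clock genes 7 rose and 4 fell: the morning genes LHY and CCA1 had 1.77, 2.08 and 2.01 CPM and 13.4, 16.5 and 13 CPM in cdk8 with ABA, against 36.9, 37.4 and 33 CPM and 80.1, 89 and 69.2 CPM in cdk8 mock, while the evening genes TOC1 and LUX rose by 2.21 ± 0.15 and 2.94 ± 0.15. LHY and CCA1 changed by -4.19 ± 0.12 and -2.47 ± 0.16. The time of day of each harvest is not given in the sources used here, so the treatment and the hour cannot be told apart in these genes or in any other.

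Set beside wild type, most of the response was in the same direction. Of the 6466 genes called higher in cdk8, 5312 were also called higher in wild type (82.2% of the cdk8 calls and 78.7% of the wild-type calls), and of the 6430 called lower, 5429 were (84.4% and 78.3%). In wild type 6751 genes were called higher (31.9%) and 6934 lower (32.8%). Another 1125 genes were called higher (5.32%) and 959 lower (4.53%) in cdk8 and not called in wild type, most of which had no called difference between the genotypes. The response itself differed between genotypes in 501 genes that were more positive in cdk8 (2.37% of those tested) and 602 that were more negative (2.85%). By direction, 254 genes called higher in both genotypes rose less in cdk8 and 174 called lower in both fell less, whereas 77 rose more and 73 fell more. A further 147 genes were called higher and 145 lower in wild type alone, and 76 higher and 87 lower in cdk8 alone, with the difference called. Another 29 genes (0.137%) were called higher in cdk8 and lower in wild type, and 42 (0.199%) the reverse, of which 41 had a called difference. These counts depended on single libraries: leaving out any of wild-type mock 1, 2 or 3, cdk8 mock 1 or 2, or cdk8 ABA 1 took them to between 253 and 332 more positive and between 287 and 391 more negative, and leaving out both libraries that stood apart gave 896 and 1167. Upper-quartile scaling turned the balance to 651 more positive and 462 more negative.

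Within the pathway, the difference was called in 1 of 9 phosphatases, 1 of 7 ABF and ABI5 factors, 2 of 10 SnRK2 kinases and none of 10 receptors. Over all genes it was called more positive in 2.37% and more negative in 2.85%, and nothing is read from these small counts. SNRK2.5 fell less in cdk8 (difference 0.93 ± 0.18, adjusted p 0.0124) and SNRK2.9 rose more (0.87 ± 0.19, adjusted p 0.0184), the last not passing without wild-type mock 3 (0.83, adjusted p 0.0505) or cdk8 mock 1 (0.75, adjusted p 0.0528). HAB1, a clade A phosphatase, had 403, 414 and 450.5 CPM in cdk8 with ABA and 59.7, 66.9 and 59.9 CPM in cdk8 mock, beside 579, 495 and 504 CPM in wild type with ABA and 45.9, 37.8 and 46.8 CPM in wild type with mock. Its rise was smaller in cdk8 (difference -0.83 ± 0.15, adjusted p 0.00756), with cdk8 lower after ABA and higher in mock. ABF1 had 100, 104 and 104 CPM in cdk8 with ABA and 28.9, 32.3 and 26.7 CPM in cdk8 mock, beside 79.3, 80.3 and 86.2 CPM in wild type with ABA and 42.8, 42.6 and 44.6 CPM in wild type with mock. Its rise was larger in cdk8 (0.89 ± 0.12, adjusted p 0.0012), with the reverse order. RD20, a calcium-binding oil-body protein, rose by 3.51 ± 0.26 in cdk8 and 5.27 ± 0.28 in wild type (difference -1.76 ± 0.35, adjusted p 0.012). HB7 rose by 3.22 ± 0.11 and 3.91 ± 0.11 (-0.70 ± 0.14, adjusted p 0.0124).

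Some single genes rose less in cdk8. The difference was called more negative in 3 of 7 genes of starch and sucrose breakdown, 2 of 6 dark-inducible genes and 1 of 6 genes of chlorophyll breakdown, beside 2.85% of all genes. SAG29, a senescence-linked sugar transporter, had 32.4, 43.6 and 38.1 CPM in cdk8 with ABA and 16, 17 and 9.37 CPM in cdk8 mock, beside 81, 69.8 and 80.9 CPM in wild type with ABA and 3.46, 1.57 and 4.59 CPM in wild type with mock. Cdk8 was above wild type in mock and below it after ABA (difference -3.17 ± 0.37, adjusted p 0.000912). DIN2, a dark-inducible beta-glucosidase, had 15.9, 15.7 and 29.5 CPM in cdk8 with ABA and 7.3, 4.71 and 5.64 CPM in cdk8 mock, beside 188, 115 and 89.8 CPM in wild type with ABA and 6.2, 5.47 and 6.86 CPM in wild type with mock. The mock libraries of the genotypes overlapped and every wild-type ABA library was higher than every cdk8 ABA library (-2.62 ± 0.43, adjusted p 0.00476). The sucrose synthase SUS1 rose by 3.15 ± 0.17 in cdk8 and 4.54 ± 0.18 in wild type (-1.38 ± 0.22, adjusted p 0.00441). NYC1 (-0.88 ± 0.15), BAM1 (-0.84 ± 0.17), CYP76C2, a P450 (-3.12 ± 0.52), and CER3 of wax synthesis (-1.2 ± 0.21) also rose less in cdk8, with adjusted p from 0.00527 to 0.0131.

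Several antenna genes fell less in cdk8, with the difference called more positive in 5 of 12 LHCB genes, beside 2.37% of all genes. LHCB1.1 had 2007, 1727 and 1729 CPM in cdk8 with ABA and 5624, 5311 and 5098 CPM in cdk8 mock, beside 806, 745 and 731 CPM in wild type with ABA and 4880, 5636 and 5356 CPM in wild type with mock. The mock groups overlapped and the ABA libraries of cdk8 were all higher (difference 1.24 ± 0.15, adjusted p 0.00106). LHCB2.1 and LHCB2.2 differed by 1.41 ± 0.28 and 1.22 ± 0.24 (adjusted p 0.0124 and 0.0121).

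Other genes fell in cdk8 while the wild-type change did not pass. KAT1, the potassium channel that lets ions into guard cells, had 19.3, 18.3 and 17.3 CPM in cdk8 with ABA and 50.5, 59.1 and 43.7 CPM in cdk8 mock, beside 24.3, 21.1 and 31.5 CPM in wild type with ABA and 24.8, 23.2 and 26.3 CPM in wild type with mock. Cdk8 mock was highest and cdk8 with ABA lowest (difference -1.53 ± 0.20, adjusted p 0.0012). ACD6, an ankyrin protein of immune cell death, had 1.53, 1.65 and 0.803 CPM in cdk8 with ABA and 24.4, 28.7 and 50.4 CPM in cdk8 mock, beside 7.24, 7.75 and 13.4 CPM in wild type with ABA and 24.2, 12.1 and 10.7 CPM in wild type with mock. It was lowest in every cdk8 ABA library (-3.96 ± 0.54, adjusted p 0.00177). LOX2, a lipoxygenase of jasmonate synthesis, changed by -1.06 ± 0.14 in cdk8 and 0.13 ± 0.14 in wild type (-1.19 ± 0.20, adjusted p 0.00599), and KRP1, an inhibitor of cyclin-dependent kinases, by -1.19 ± 0.14 and -0.13 ± 0.14 (-1.06 ± 0.20, adjusted p 0.0103).

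Among the genes with a more positive response, CBF2, a cold-response factor, had 18.7, 15.2 and 21.2 CPM in cdk8 with ABA and 1.91, 1.33 and 1.4 CPM in cdk8 mock, beside 14.7, 10.7 and 10.5 CPM in wild type with ABA and 3.79, 3.47 and 4.96 CPM in wild type with mock. It was lowest in cdk8 mock and highest in cdk8 with ABA (difference 2.02 ± 0.29, adjusted p 0.00215). PRR5 of the clock rose by 1.88 ± 0.17 in cdk8 and 0.63 ± 0.16 in wild type (1.25 ± 0.23, adjusted p 0.00881). AHP4, a phosphotransfer protein of cytokinin signalling, rose by 1.62 ± 0.24 in cdk8 while the wild-type value of -0.21 ± 0.22 did not pass, and the difference was 1.83 ± 0.33 (adjusted p 0.0073). ST4B, a sulfotransferase, fell less in cdk8 (1.7 ± 0.25, adjusted p 0.00286).

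The remaining large differences passed in edgeR over all 12 libraries but not without some single libraries. With limma-voom on all 12 libraries, ABCG40 (2.77, adjusted p 0.172), GAD4 (2.14, 0.141), TPS04 (-7.17, 0.165), EXT13 (-2.27, 0.123), CBF1 (1.97, 0.0684) and PS2 (1.79, 0.0501) did not pass either. ABCG40, an ABA importer of the plasma membrane, had 23.5, 27.8 and 23.65 CPM in cdk8 with ABA and 2.96, 1.83 and 3.54 CPM in cdk8 mock, beside 29.2, 16.3 and 32.5 CPM in wild type with ABA and 36.5, 4.66 and 40.8 CPM in wild type with mock, where replicate 2 was low in both wild-type groups. Its difference of 3.22 ± 0.77 (adjusted p 0.0298) did not pass without wild-type mock 1 or 3, wild-type ABA 2, any cdk8 mock library or cdk8 ABA 1 (2.81 to 3.44, adjusted p 0.0548 to 0.0828). CBF1 (1.93 ± 0.44, adjusted p 0.0239) did not pass without wild-type mock 1, cdk8 mock 1 or 2, or cdk8 ABA 1 (1.56 to 2.1, adjusted p 0.0528 to 0.0704). GAD4, a glutamate decarboxylase (2.33 ± 0.56, adjusted p 0.0305), did not pass without wild-type mock 1 or 3, wild-type ABA 1 or 2, any cdk8 mock library or cdk8 ABA 3 (1.86 to 2.48, adjusted p 0.0560 to 0.0878). PS2, a pyrophosphatase gene of phosphate starvation (1.97 ± 0.44, adjusted p 0.0221), did not pass without wild-type ABA 2 or cdk8 mock 1 or 3 (1.87 to 1.96, adjusted p 0.0504 to 0.0590), and ORA47, an ERF of the jasmonate response (1.68 ± 0.34, adjusted p 0.0137), without cdk8 ABA 1 (1.51, adjusted p 0.0524). In the negative direction, TPS04 (-8.23 ± 1.93, adjusted p 0.0271) did not pass without wild-type mock 2 or 3, wild-type ABA 3, cdk8 mock 1 or 3, or cdk8 ABA 1 or 3 (-8.34 to -5.68, adjusted p 0.0524 to 0.152), nor without both libraries that stood apart (-8.88, adjusted p 0.123). EXT13 (-2.27 ± 0.59, adjusted p 0.0398) did not pass without wild-type mock 2 or 3, wild-type ABA 3, cdk8 mock 1 or 2, or cdk8 ABA 1 or 2 (-2.42 to -1.69, adjusted p 0.0521 to 0.106), nor with a replicate block (-2.25, adjusted p 0.0804), and was -1.32 (adjusted p 0.162) without both libraries that stood apart. A further case was GLYI7, a glyoxalase (-2.12 ± 0.43, adjusted p 0.0134), which did not pass without cdk8 mock 1 or 2 (-2.02 to -1.71, adjusted p 0.0511 to 0.0752).

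In a few genes the 2 genotypes moved in opposite directions with both changes called. NHL1, of a family named after immune membrane proteins, had 28.6, 39.5 and 29.6 CPM in cdk8 with ABA and 61.3, 57.9 and 56.1 CPM in cdk8 mock, beside 102, 89.3 and 97.4 CPM in wild type with ABA and 63.8, 49 and 53.2 CPM in wild type with mock. The mock levels overlapped and the ABA levels parted, low in cdk8 and high in wild type (difference -1.64 ± 0.18, adjusted p 0.00064). UBC20, a ubiquitin-conjugating enzyme of cell division, had 25, 26.6 and 25 CPM in cdk8 with ABA and 18.5, 17.41 and 18.6 CPM in cdk8 mock, beside 19.1, 19.2 and 23.3 CPM in wild type with ABA and 29.6, 30.3 and 32.5 CPM in wild type with mock. The difference was 1.07 ± 0.13 (adjusted p 0.0012), with cdk8 above wild type after ABA and below it in mock, and 14.6% of the gene's exon bases are shared with another gene. FZR3, an activator of the anaphase-promoting complex, rose by 0.81 ± 0.12 in cdk8 and changed by -0.39 ± 0.12 in wild type (1.2 ± 0.17). The kinase-like gene ORG1 (-1.52 ± 0.20), AO, L-aspartate oxidase (-1.41 ± 0.26), and CSLB03, a cellulose synthase-like gene (-1.72 ± 0.30), fell in cdk8 and rose in wild type, with adjusted p for the difference from 0.0012 to 0.00916. TCH2, a calmodulin-like protein (1.08 ± 0.26, adjusted p 0.0305), did not pass without any one of the wild-type mock libraries, wild-type ABA 2, or cdk8 ABA 1 or 3 (0.94 to 1.1, adjusted p 0.0573 to 0.0716). EXO70H2, a subunit of the exocyst (0.81 ± 0.18, adjusted p 0.021), did not pass without wild-type mock 2 or 3, cdk8 mock 2 or 3, or cdk8 ABA 1 (0.76 to 0.81, adjusted p 0.0502 to 0.0624), and its rise in cdk8 (0.40 ± 0.12) did not pass without cdk8 ABA 1 (0.34, adjusted p 0.0546) or 2 (0.29, adjusted p 0.0684).

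**Figure D5:**
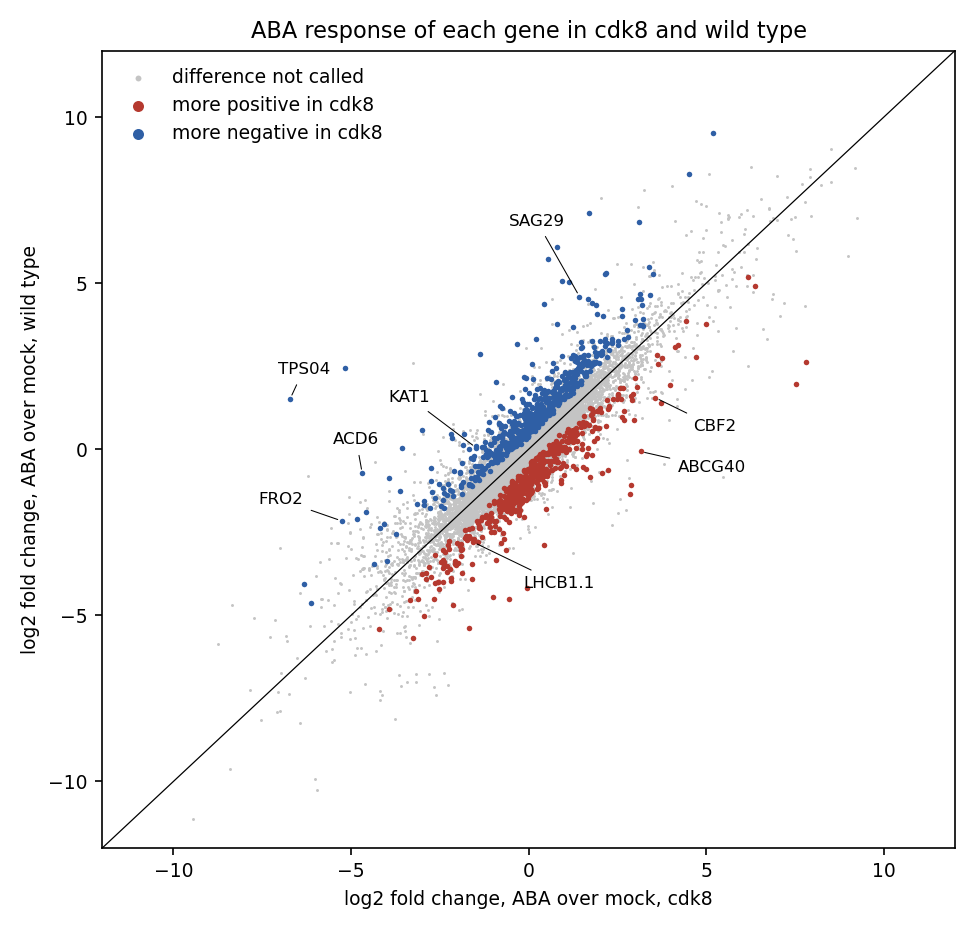
Log2 fold change, ABA over mock, of each of 21151 genes in cdk8 (horizontal) and wild type (vertical), with the line of equal response. Genes whose difference was called are in red (501, more positive in cdk8) and blue (602, more negative); most lie in the same quadrant for both genotypes, and 8 genes of the text are named.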

How the data were processed

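RNA was measured in 12 libraries of 1-week-old whole seedlings, 3 in each of 4 groups, and grouped by the labels for genotype and treatment. The authors deposited raw counts of fragments per gene, made with featureCounts 1.4.6 over exons grouped by gene on a TAIR10 annotation, per the file headers, with no strand option in the command. TopHat2 and FastQC are named in the submitters' processing notes, without versions.

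From these counts, genes with low counts were removed with edgeR's filterByExpr (21151 of 33602 kept), TMM factors were computed, and 1 mean per group was fitted over all 12 libraries with edgeR 4.0.16 in R 4.3.3 (quasi-likelihood test, Benjamini-Hochberg adjusted p under 0.05). The contrasts were ABA against mock in cdk8, the same in wild type, and the difference of both. The script was checked on simulated counts. DESeq2 1.42.0, limma-voom 3.58.1, other scalings and filters, and leaving out each library were the alternatives. Standard errors came from the log2 fold change and its F value. Counting intervals are exact at 95% and, like the floor of 3 counts, cover counting error only.

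The experiment, the gene lists and the alternatives were chosen with earlier results of these data known. Genes named are CDK8, RAP2.6 and SnRK2.6; the 10 largest rises and falls among called genes that have a symbol, reach 5 CPM on average in either cdk8 group and show no overlap between ABA and mock libraries; the 8 largest gains and losses of CPM; the 8 largest differences between genotypes each way and the 4 largest opposite changes each way; and members of the lists. Promoters were read from the RefSeq TAIR10.1 assembly in its own coordinates, not converted from those of the count table.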

Additional observations from a re-analysis of the deposited data

Results flagged for a closer look

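The genes below are those of the text whose response to ABA differed between the genotypes by edgeR's quasi-likelihood test of the difference itself (Benjamini-Hochberg adjusted p under 0.05 over all 21151 genes). Each value is the log2 response of cdk8 minus that of wild type, with 3 libraries in each of the 4 groups.

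In ABA signalling, transport and stress regulation, the difference was -0.83 ± 0.15 for HAB1, 0.89 ± 0.12 for ABF1, 0.93 ± 0.18 for SNRK2.5, 0.87 ± 0.19 for SNRK2.9, 3.22 ± 0.77 for ABCG40, -1.76 ± 0.35 for RD20, -0.70 ± 0.14 for HB7, 1.93 ± 0.44 for CBF1 and 2.02 ± 0.29 for CBF2. In sugar use, dark response and senescence it was -1.38 ± 0.22 for SUS1, -0.84 ± 0.17 for BAM1, -2.62 ± 0.43 for DIN2, -3.17 ± 0.37 for SAG29, -3.12 ± 0.52 for CYP76C2 and -2.12 ± 0.43 for GLYI7. Among iron genes it was -3.11 ± 0.54 for FRO2 and 1.12 ± 0.21 for FER4. Among genes of light harvesting and chlorophyll it was 1.24 ± 0.15 for LHCB1.1, 1.41 ± 0.28 for LHCB2.1, 1.22 ± 0.24 for LHCB2.2 and -0.88 ± 0.15 for NYC1.

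In growth, surface, guard cell and clock genes it was -2.27 ± 0.59 for EXT13, -1.06 ± 0.20 for KRP1, -1.53 ± 0.20 for KAT1, -1.2 ± 0.21 for CER3, 1.25 ± 0.23 for PRR5, 1.07 ± 0.13 for UBC20, 1.2 ± 0.17 for FZR3, -1.72 ± 0.30 for CSLB03, 0.81 ± 0.18 for EXO70H2 and 1.83 ± 0.33 for AHP4. In jasmonate, defence and calcium genes it was -1.19 ± 0.20 for LOX2, 1.68 ± 0.34 for ORA47, -3.96 ± 0.54 for ACD6, -8.23 ± 1.93 for TPS04, -1.64 ± 0.18 for NHL1 and 1.08 ± 0.26 for TCH2. Among other genes it was 2.33 ± 0.56 for GAD4, 1.97 ± 0.44 for PS2, 1.7 ± 0.25 for ST4B, -1.52 ± 0.20 for ORG1 and -1.41 ± 0.26 for AO. It was -3.12 ± 0.52 for CYP76C2 and -2.12 ± 0.43 for GLYI7. The single libraries on which ABCG40, CBF1, EXO70H2, EXT13, FRO2, GAD4, GLYI7, ORA47, PS2, SNRK2.9, TCH2 and TPS04 depended are given with these genes in the report.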

How the results depend on the processing

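In cdk8, the counts of genes higher and lower kept within 1.5 times under every scaling, filter and tool run, with 5885 to 6148 higher and 5935 to 6345 lower when 1 library was left out, and 2433 and 3047 when a change of at least 2-fold was also required. Upper-quartile scaling moved the balance in cdk8 to 5722 higher and 7151 lower. The difference between genotypes was less stable. Leaving out 1 library gave 253 to 666 genes more positive and 287 to 827 more negative in cdk8, lowest without cdk8 mock 1 and highest without wild-type ABA 3. Leaving out both libraries that stood apart, an alternative chosen after seeing the data, gave 896 and 1167. A replicate block gave 302 and 348, an adjusted p under 0.01 gave 113 and 156, and at least 2-fold gave 235 and 213. DESeq2 called 1051 more negative. The share more positive was 45.4% with TMM and 58.5% with upper-quartile scaling. The cause of these shifts was not tested. Replicate numbers stand in the column names of the count table only. The deviations of same-numbered libraries of cdk8 with ABA and cdk8 mock from their group means correlated at -0.025, -0.23 and -0.1. With so few libraries per group, these values cannot show whether same-numbered libraries share an origin.

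Of 190 single-gene results, 175 kept direction and call under every alternative run and 15 lost or gained a call under some, with no direction reversed: LHB1B2, EXO70H2 and CDK8 in cdk8, and the 12 differences named with their libraries in the report. The depth of these libraries limits genes near the floor of 3 counts, whose folds are given as bounds or with counting intervals. Overlapping genes and near copies cannot be told apart by these counts.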

Other observations

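Seed storage and oil-body genes split the ABA libraries of cdk8. Of 15 such genes 7 had enough counts to be tested, and 5 rose by edgeR, 3 by DESeq2 or with a replicate block, and none by limma-voom. OLEO2, an oil-body protein, had 11.8, 0.824 and 6.46 CPM in cdk8 with ABA and 0.582, 1.39 and 0.746 CPM in cdk8 mock. CRU3, a seed storage protein, had 16.4, 0.86 and 4.34 CPM with ABA and 0.582, 2.05 and 0.652 CPM with mock. Cdk8 ABA replicate 2 lay among the mock libraries in both genes, and the groups overlapped in all 7. Without cdk8 ABA replicate 2, 9 of 11 tested genes rose, and without cdk8 ABA replicate 1, 2 of 9 rose and 1 fell. The part of replicate 2's other features in this was not tested.

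Lipid transfer proteins, which carry lipids to the leaf surface, mostly rose in cdk8. LTP4 had 12.6, 12.8 and 20.8 CPM with ABA and 1.0, 1.17 and 0.699 CPM with mock, and LTP3 had 23.5, 28.3 and 27.9 CPM with ABA and 3.97, 3.49 and 2.38 CPM with mock. The list had 4 of 6 genes higher and 1 lower, beside 30.6% and 30.4% over all genes (median log2 fold change 1.58, against 0.007 over all genes). Of 6 dark-inducible genes 3 rose in cdk8 (5 without both libraries that stood apart), while all 6 were called higher in wild type. The difference between the genotypes was called more negative in 2 of them, beside 2.85% of all genes. Of 11 cell cycle genes 7 fell and 2 rose in cdk8, but 1 rose under most alternatives, among them leaving out any cdk8 mock library or cdk8 ABA replicate 1 or 2, and 5 to 7 fell when 1 library was left out. The difference was called more positive in cdk8 for 5 and more negative for 1, beside 2.37% and 2.85% of all genes.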
